A study of Homo sapiens with 16 samples.

Results

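The response of 4 anaplastic large cell lymphoma (ALCL) lines to a combined epigenetic treatment is described here across 11963 genes. The ALK-negative line FE-PD was studied with JB6, Karpas 299 and SU-DHL-1. Each was profiled on 1 array untreated and on 1 array treated, so the comparison rests on 8 of the 16 arrays of the series and on 4 of its 8 cell lines. Members were chosen by their labels, which name the cell line, its type and its treatment, and every change is the treated minus the untreated array of the same line. The study also profiled 4 T-cell leukaemia lines (Jurkat, CCRF-CEM and Molt-3 with Molt-4) in the same way on Affymetrix HG-U133A arrays. Treated cells received 1 µM 5-aza-2'-deoxycytidine for 6 days, with drug and medium renewed on days 2 and 5, and 625 nM trichostatin A for the last 24 hours. Untreated cells of the same line were the controls. All cells grew in RPMI 1640 with 10% fetal bovine serum. No group received 1 agent alone, so what each agent did cannot be told apart, and the labels name no vehicle for the untreated cells. Each value is 1 culture on 1 array, and the 4 lines serve as the replicates (n = 4).

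5-aza-2'-deoxycytidine is a cytidine analogue that is built into DNA during replication and traps DNA methyltransferases, so that methylation is lost as cells divide. Trichostatin A inhibits histone deacetylases and raises histone acetylation. ALCL is a lymphoma of T-cell origin that displays CD30, often makes cytotoxic granule proteins and expresses few T-cell receptor components. In ALK-positive ALCL a fusion kinase, most often NPM1-ALK, drives STAT3 signalling, whereas FE-PD is an ALK-negative line.

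The labels were checked against marker genes on the untreated arrays. TNFRSF8, which encodes CD30, stood at log2 values of 12.05 in FE-PD, 11 in JB6, 11.05 in SU-DHL-1 and 11.80 in Karpas 299. ALK stood at 6.39 in FE-PD and at 10.66, 11.10 and 10.00 in JB6, SU-DHL-1 and Karpas 299, so FE-PD lay apart from the other 3 by more than 3 units. The cytotoxic granule gene PRF1, which encodes perforin, ranged from 12.01 to 13.40. The B-cell receptor gene CD79A (6.57 to 6.77), the monocyte gene LYZ (3.89 to 4.02) and the epithelial adhesion gene EPCAM (4.08 to 4.21) lay far lower than TNFRSF8 and PRF1, although levels of different genes on arrays are not comparable in amount. Other cytotoxic granule genes differed between lines. GZMA stood at 4.89 in FE-PD and at 8.05, 9.76 and 11.39 in JB6, SU-DHL-1 and Karpas 299. NKG7 stood at 6.61 and at 10.36, 11.46 and 9.58. GZMM (8.68 against 5.87, 6.13 and 5.98) and SERPINB9 (8.95 against 5.97, 5.55 and 6.27) were higher in FE-PD.

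Several array measures moved with the treatment. A control probe set for 28S ribosomal RNA stood between 6.60 and 7.62 on the untreated arrays, and on the treated ones at 12.05 in FE-PD, 14.09 in JB6, 14.06 in SU-DHL-1 and 6.81 in Karpas 299. Treated arrays also had a narrower spread of values in 4 of 4 lines (mean change in SD -0.12), and the 3' minus 5' signal was higher in 3 of 4 lines for ACTB and in 4 of 4 for GAPDH (by 0.11 to 0.76). Spike control probe sets read 0.01 to 1.33 higher on treated arrays. The largest difference, in JB6, went from 7.76 untreated to 9.10 treated, while the other untreated arrays stood at 8.98 to 9.19. With 4 pairs an exact sign-flip permutation test cannot go below p = 0.125, and none of these measures gave less. Their part in the results below was not tested beyond the alternatives named: with the arrays centred on the spikes the median change over all genes was -0.52 in place of 0.09, and 3.6% of calls were rises in place of 37.5%. With quantile normalization that share was 46.6%.

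Treatment changed 2566 of 11963 genes (21.4%; limma, Benjamini-Hochberg adjusted p below 0.05, called throughout). Of these, 962 rose (8.04%) and 1604 fell (13.4%). Counts for the gene lists below are to be set beside these shares. At least 2-fold rises numbered 275 (2.3%) and falls 729 (6.09%). Of the called genes 2456 moved the same way in all 4 lines. The falls lay among genes that were high before treatment: among the 2991 genes with the highest untreated mean 176 genes rose and 1050 fell (median change -0.38), and among the 2991 with the lowest 205 rose and 30 fell (median 0.17). Leaving out JB6 lowered the count of called genes to 1432, and leaving out SU-DHL-1 to 1526. With the 28S signal as a covariate 730 genes were called. High 28S values lay only on treated arrays, so this covariate overlaps with the treatment and lowers the power of the fit. A call lost with it, here and below, does not tell a part of the 28S signal from that of the treatment.

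Among the 12 largest rises were secreted proteins, germline antigens and histones. SPP1, which encodes the secreted phosphoprotein osteopontin, stood untreated at 5.06 in FE-PD, 4.96 in JB6, 6.70 in SU-DHL-1 and 4.95 in Karpas 299, and treated at 9.30, 9.55, 12.29 and 10.69. Every treated value lay above every untreated one, as held for 7.69% of all genes; the reverse held for 8.75%. The rise was 32.9-fold (5.04 ± 0.23, standard error, n = 4, adjusted p = 5.46e-06). AGT, the precursor of angiotensin, went from 6.26, 6.13, 6.76 and 7.47 to 9.03, 12.68, 12.77 and 11.54 in the same order of lines. It rose 28.8-fold (4.85 ± 0.49, adjusted p = 0.000264), least in FE-PD. ENPP2, the enzyme autotaxin, which makes lysophosphatidic acid, rose 10.4-fold (3.37 ± 0.14, adjusted p = 3.79e-06), by 3.15 in FE-PD and 3.45 in each of the other 3 lines. Its weaker probe set rose less evenly, by 4.13 in FE-PD, 4.93 in JB6, 4.33 in SU-DHL-1 and 3.53 in Karpas 299. SLPI, a secreted inhibitor of leukocyte proteases, rose 10.9-fold, from 7.0 to 9.04 untreated to 10.14 to 12.01 treated.

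TKTL1, a transketolase-like gene, rose 29.8-fold, from 5.69, 5.27, 5.82 and 5.85 to 12.33, 9.98, 9.20 and 10.70. Its rise in FE-PD, of 6.65, exceeded that of 3.38 in SU-DHL-1. DHRS2, a short-chain dehydrogenase, rose 18.3-fold (4.19 ± 0.42), with untreated values of 7.16 to 7.77 and treated values of 10.12 to 12.69. NPTX2, a neuronal pentraxin, rose by 4.35 in FE-PD, 4.33 in SU-DHL-1 and 3.98 in Karpas 299, and by 2.09 in JB6. The transcription factor FOS rose 9.66-fold, between 2.09 in Karpas 299 and 4.68 in FE-PD. The remaining 4 of the 12 were the cancer-testis antigens MAGEA6 and MAGEA12 and the histones H1-2 and H2BC21.

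**Figure D1:**
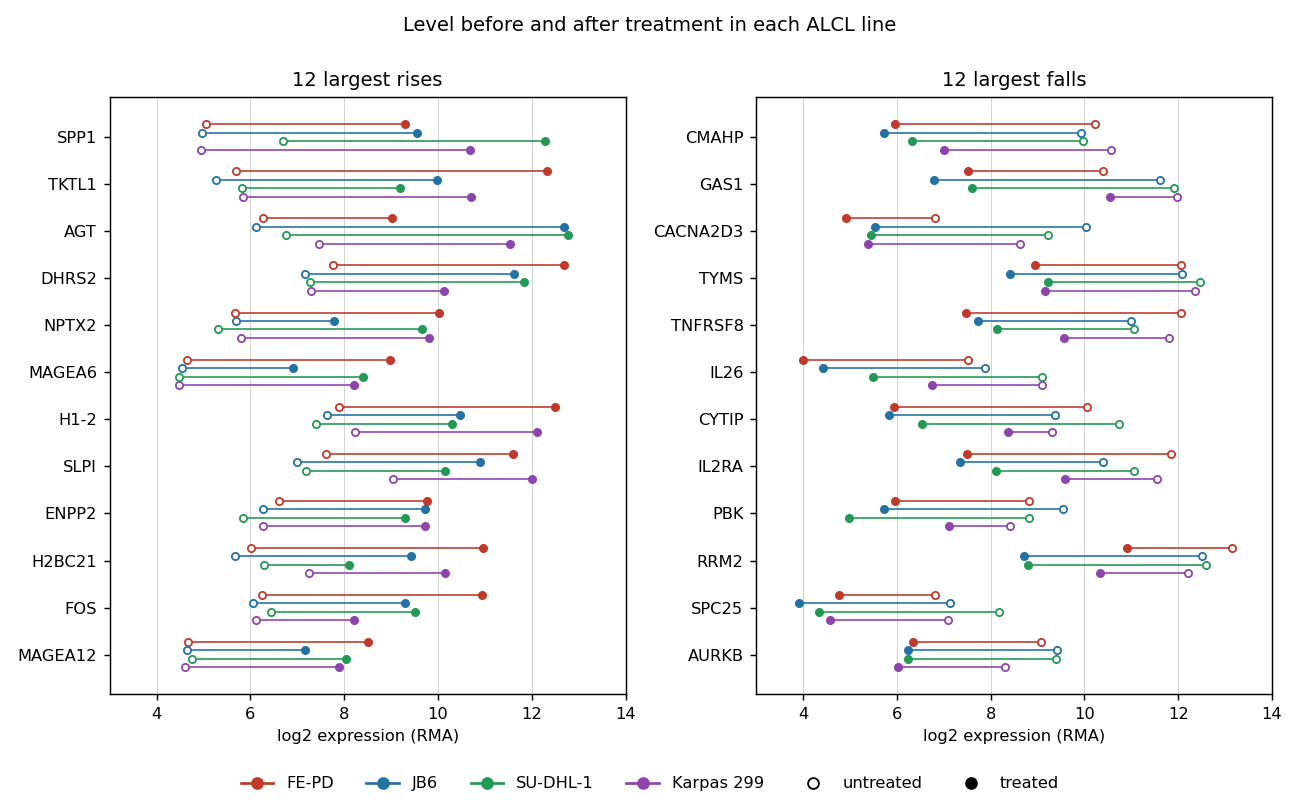
Log2 expression of the 12 genes with the largest called rises (left) and the 12 with the largest called falls (right) among those that moved the same way in all 4 ALCL lines. Open points are untreated and filled points treated arrays, 1 of each per line, joined by a line. SPP1 moves from 4.95 to 6.70 untreated to 9.30 to 12.29 treated, and TYMS from 12.05 to 12.46 down to 8.41 to 9.23.

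The 250 bases upstream of the annotated start are shown for 4 genes whose levels rose in 1 or more ALCL lines, because DNA methylation acts on CG pairs and these windows differ widely in how many they hold. SPP1, DHRS2 and MAGEA6 rose in all 4 lines, and ID2 in FE-PD alone, as described further on. Sequences are from RefSeq (GRCh38.p14), 5' to 3' on the gene's strand, with each CG pair in capitals. The windows are at chr4:87975464-87975713 (SPP1, + strand), chr14:23629865-23630114 (DHRS2, + strand), chrX:152769690-152769939 (MAGEA6, - strand) and chr2:8681806-8682055 (ID2, + strand).
SPP1: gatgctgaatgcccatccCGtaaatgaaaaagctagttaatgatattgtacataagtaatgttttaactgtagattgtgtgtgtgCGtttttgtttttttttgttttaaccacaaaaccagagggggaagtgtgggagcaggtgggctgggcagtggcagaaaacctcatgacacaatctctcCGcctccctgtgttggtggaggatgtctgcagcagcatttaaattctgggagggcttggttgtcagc
DHRS2: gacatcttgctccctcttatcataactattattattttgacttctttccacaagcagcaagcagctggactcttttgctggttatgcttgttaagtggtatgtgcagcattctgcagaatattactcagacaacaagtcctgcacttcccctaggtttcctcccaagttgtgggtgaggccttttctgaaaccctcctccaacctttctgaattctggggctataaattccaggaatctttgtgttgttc
MAGEA6: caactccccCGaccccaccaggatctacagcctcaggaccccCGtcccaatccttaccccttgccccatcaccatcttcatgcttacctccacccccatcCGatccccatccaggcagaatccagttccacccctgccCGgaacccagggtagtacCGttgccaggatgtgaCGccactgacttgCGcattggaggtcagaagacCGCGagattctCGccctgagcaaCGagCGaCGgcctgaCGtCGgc
ID2: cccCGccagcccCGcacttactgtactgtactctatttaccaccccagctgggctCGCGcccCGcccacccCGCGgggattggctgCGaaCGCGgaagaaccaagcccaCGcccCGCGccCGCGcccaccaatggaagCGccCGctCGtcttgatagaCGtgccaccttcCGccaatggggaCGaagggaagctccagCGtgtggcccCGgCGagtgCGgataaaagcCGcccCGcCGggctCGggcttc

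The SPP1 window holds 3 CG pairs, that of DHRS2 0, that of MAGEA6 15 and that of ID2 29. A window was counted as CpG-rich when its GC content was above 50% and its ratio of observed to expected CG pairs above 0.6. Of the 9546 tested genes with such a sequence, 66.4% were CpG-rich, against 70.7% of those that rose and 81.9% of those that fell. Among genes with the highest untreated level, of which 2576 have a sequence, the share was 83% for all genes, 82% for those that fell and 81.6% for those that rose. In the group below, of which 2421 have a sequence, it was 74.6%, 82.4% and 75.1%. In the next group down, of which 2303 have one, it was 56.3%, 81.1% and 66%. In the lowest group only 78.7% of genes have a sequence, so its shares are not read. Its genes are part of the shares over all levels given first. These are counts of letters, and no methylation was measured. Genes on the X chromosome, where the MAGE family lies, made up 3.87% of all genes tested, 4.68% of those that rose and 20 of the 275 (7.27%) that rose at least 2-fold.

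The largest falls included the marker of the disease itself, the high-affinity interleukin-2 receptor chain and genes of DNA synthesis and mitosis. CMAHP, a pseudogene of a sialic acid hydroxylase, fell 15-fold (-3.91 ± 0.27, adjusted p = 3.95e-05), from 9.92 to 10.56 untreated to 5.72 to 7.01 treated. TNFRSF8 fell to 7.48 in FE-PD, 7.73 in JB6, 8.13 in SU-DHL-1 and 9.56 in Karpas 299. This was a 9.51-fold fall (-3.25 ± 0.32, adjusted p = 0.000234), largest in FE-PD and smallest in Karpas 299. IL2RA, which encodes CD25, went from 11.85, 10.39, 11.05 and 11.54 to 7.49, 7.34, 8.12 and 9.58, with no overlap between the groups (-3.08 ± 0.31, adjusted p = 0.000244).

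IL26, a T-cell cytokine, changed by -3.52 in FE-PD, -3.45 in JB6, -3.61 in SU-DHL-1 and -2.33 in Karpas 299. GAS1, a membrane protein that binds hedgehog ligands, fell 10.3-fold, by 4.82 in JB6 and by 1.43 in Karpas 299. CACNA2D3, a calcium channel subunit, changed by -1.89 in FE-PD, where it started at 6.81, and by -4.52 to -3.24 in the other 3 lines, where it started at 8.63 to 10.04. CYTIP, a regulator of leukocyte adhesion, changed by -4.2 to -3.55 in 3 lines and by -0.93 in Karpas 299. The other 5 were TYMS, RRM2, PBK, SPC25 and AURKB.

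Genes of the cell cycle fell together. Of 43 mitosis genes 35 fell and 0 rose (median -1.69, against 0.09 for all genes), and of 45 DNA replication genes 38 fell and 1 rose (median -1.32). TYMS, thymidylate synthase, stood at 12.05, 12.09, 12.46 and 12.35 untreated and at 8.95, 8.41, 9.23 and 9.15 treated, a 9.88-fold fall with no overlap (-3.30 ± 0.19, adjusted p = 2.02e-05). Its value was -1.63 with the mean of its probe sets. The replicative helicase subunits MCM7 (-2.81 ± 0.16), MCM5 (-2.44 ± 0.20) and MCM2 (-2.38 ± 0.18) fell, each in 4 of 4 lines.

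The mitotic kinases and their partners moved the same way. The chromosomal passenger kinase AURKB fell by 2.84 ± 0.28, the kinetochore genes SPC25 and ZWINT by 2.91 ± 0.34 and 2.20 ± 0.15, the spindle checkpoint gene MAD2L1 by 2.72 ± 0.32 and CCNA2, cyclin A2, by 2.21 ± 0.19. PBK, a mitotic kinase, fell by 2.96 ± 0.44. By line, the median of the mitosis list was -1.37 in FE-PD, -2.33 in JB6, -2.06 in SU-DHL-1 and -0.76 in Karpas 299, the line without the 28S rise. With the 28S signal as a covariate 12 mitosis and 31 replication genes fell, with medians of -0.83 and -1.09. In bulk RNA fewer cells of a kind and less RNA per cell cannot be told apart, and whether cells had stopped dividing was not measured.

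Genes of nucleoside uptake and of handling of the cytidine analogue fell as well, 13 of 22 and 0 rose (median -0.97, and 8 fell with the 28S covariate). This list shares members with the replication list. The ribonucleotide reductase subunits RRM1 (-2.31 ± 0.22) and RRM2 (-2.93 ± 0.33) fell, as did DUT, which removes dUTP (-1.96 ± 0.15). APOBEC3B, a deaminase of cytidines in DNA and not of the free nucleoside, fell too (-2.79 ± 0.30, limma, adjusted p = 0.000358).

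Of 15 genes of DNA methylation and methyl-CpG binding, 5 fell and 1 rose (median -0.05; 1 fell with the 28S covariate). DNMT1, the maintenance methyltransferase whose protein 5-aza-2'-deoxycytidine traps, stood at 9.15, 8.93, 9.45 and 9.14 untreated and at 7.92, 6.67, 7.70 and 8.45 treated (-1.49 ± 0.25, adjusted p = 0.00265), a call lost with the 28S covariate (adjusted p = 0.0595). HELLS, a chromatin remodeller needed for DNA methylation, fell by 1.00 ± 0.14. GADD45B, a stress gene tied to demethylation, was the member that rose (2.24 ± 0.25). The de novo methyltransferases DNMT3A (0.31 ± 0.24, adjusted p = 0.358) and DNMT3B (0.12 ± 0.14, adjusted p = 0.545) were not called. Of 24 histone deacetylases and acetyltransferases 2 rose and 3 fell (5 falls without FE-PD, 1 without JB6 or SU-DHL-1), and HDAC1 was not called (-0.46 ± 0.18, adjusted p = 0.0937). The counts of this list lie near the shares over all genes, of which 8.04% rose and 13.4% fell.

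Many germline antigens rose. Cancer-testis antigens are proteins normally restricted to germ cells, and their promoters are known for methylation in somatic cells. Of 26 measured, 16 rose and 0 fell (median 0.67), and 20 were higher and 2 lower in all 4 lines, with line medians between 0.65 in FE-PD and 1.01 in SU-DHL-1. MAGEA6 stood at 4.64, 4.54, 4.48 and 4.48 untreated and at 8.98, 6.92, 8.41 and 8.21 treated, a 12.1-fold rise (3.59 ± 0.41, adjusted p = 0.000464). MAGEA12 rose by 3.23 ± 0.43 and SSX1 by 2.19 ± 0.27 (1.16 for SSX1 with the mean of its probe sets). Probe sets of MAGE and SSX genes can read near-identical copies. With the 28S covariate 8 of these antigens rose, and with spike centring 7.

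Other germline genes had a smaller median, with 5 of 28 that rose and 0 that fell (median 0.21; 3 without SU-DHL-1 or with the 28S covariate, 1 with spike centring). HSPA2, a testis-enriched chaperone, rose by 3.50 in FE-PD, 2.85 in JB6 and 3.72 in Karpas 299 but by 0.53 in SU-DHL-1 (2.65 ± 0.52). Neuronal genes counted 9 rises and 0 falls of 40 (median 0.30), which was 4 without JB6, 5 without SU-DHL-1, 1 with the 28S covariate and 0 with spike centring. Of all genes 8.04% rose and 13.4% fell. Imprinted genes, expressed from 1 parental allele, counted 7 rises and 1 fall of 20, with 3 rises without SU-DHL-1, 4 without FE-PD, 2 with the 28S covariate and 1 with spike centring. MEST rose by 1.06 ± 0.12 and PEG10 by 1.56 ± 0.26, and neither was called with spike centring (0.46 and 0.96), nor PEG10 with the 28S covariate (1.34).

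Histone genes counted 10 rises and 3 falls of 31 (median 0.35; 6 rises without JB6 or with spike centring). The linker histone H1-2 went from 7.88, 7.64, 7.41 and 8.23 to 12.49, 10.46, 10.30 and 12.11 (3.55 ± 0.49, adjusted p = 0.00111). The core histones H2BC21 (3.35 ± 0.49) and H2BC12 (2.50 ± 0.36) rose, and the variant H2AZ1 fell by 1.10 ± 0.15. The clustered histone genes are near-identical copies, so single members are uncertain.

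Metallothioneins, small proteins that bind zinc and copper, rose in 7 of 10 measured and fell in 0 (median 1.61; 4 without JB6). MT1X stood at 8.93, 10.65, 10.10 and 10.59 untreated and at 11.64, 13.69, 12.47 and 12.65 treated, a 5.84-fold rise without overlap (2.55 ± 0.36, adjusted p = 0.00122). MT2A rose by 2.22 ± 0.32. FE-PD had the lowest level of both genes before and after treatment. Metallothionein probe sets can also read related copies.

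Immediate early genes, which cells switch on within minutes of a stimulus, counted 9 rises and 2 falls of 28 (median 0.38; 5 rises with the 28S covariate or with spike centring). FOS stood at 6.25, 6.05, 6.44 and 6.12 untreated and at 10.93, 9.30, 9.51 and 8.20 treated (3.27 ± 0.35, adjusted p = 0.000347). The phosphatases DUSP1 (2.63 ± 0.30) and DUSP5 (2.33 ± 0.22), which switch off MAP kinases, and ZFP36, which promotes decay of cytokine mRNAs (1.87 ± 0.17), rose in 4 of 4 lines. JUN, the partner of FOS, was not called (0.58 ± 0.24, adjusted p = 0.114). MYC, a member that fell, stood at 10.47, 10.24, 10.62 and 9.04 untreated and at 8.50, 6.95, 9.09 and 9.07 treated. It changed by -1.69 ± 0.41 (adjusted p = 0.0163), by 0.03 in Karpas 299, and was not called without JB6 (-1.15, adjusted p = 0.0675) or with the 28S covariate (-0.97, adjusted p = 0.328). Nor was MYC called with the 8 ALCL arrays alone.

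Lysosome and autophagy genes counted 13 rises and 1 fall of 31 (median 0.43), 7 rises with the 28S covariate and 0 with spike centring. The saposin precursor PSAP went from 9.56 to 10.24 untreated to 11.19 to 11.92 treated (1.69 ± 0.21), and the protease CTSB rose by 1.09 ± 0.14. Neither was called with spike centring (1.08 and 0.49). Of 23 inhibitors of cyclin-dependent kinases and p53 targets 3 rose and 6 fell (1 rise with spike centring, 3 falls with the 28S covariate), where 8.04% of all genes rose and 13.4% fell. CDKN1A, which encodes p21, rose in 4 of 4 lines (1.55 ± 0.29, adjusted p = 0.00501), from 10.58, 8.53, 10.79 and 8.01 to 11.51, 11.07, 11.48 and 10.04. CDKN1C, which encodes p57, rose by 1.82 ± 0.29. Its other probe sets changed by 1.03 to 1.28, but the weakest by -0.10. BAX, which permeabilises mitochondria in apoptosis, fell by 2.02 ± 0.30 and the DNA damage sensor DDB2 by 1.21 ± 0.14. The rise of CDKN1A was not called with spike centring (0.94).

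Of 36 genes associated with ALCL, 7 fell and 2 rose (median 0.04), where 13.4% of all genes fell and 8.04% rose. The list's members are published markers of ALCL, some of them described in these lines. TNFRSF8, IL26, IL2RA, GAS1 and BATF3 were among those that fell. BATF3, an AP-1 partner factor, went from 10.87 to 11.36 untreated to 8.69 to 10.25 treated (-1.59 ± 0.21). CLU, a secreted chaperone abundant in ALCL, stayed between 12 and 13.46 on all 8 arrays (0.55 ± 0.37, adjusted p = 0.291), and LGALS1, galectin-1, between 11.15 and 12.65 (0.12 ± 0.29, adjusted p = 0.776). Weaker probe sets of CLU, at lower levels, gave larger changes, and the mean over its probe sets was called.

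ALK transcript was lower by 1.16 in JB6, 1.32 in SU-DHL-1 and 0.58 in Karpas 299 and changed by 0.02 in FE-PD, where it was at its low level on both arrays. The mean of -0.76 ± 0.22 was called (adjusted p = 0.0361) but not without JB6 (-0.63, adjusted p = 0.156), SU-DHL-1 (-0.57, 0.164), Karpas 299 (-0.82, 0.0599) or Molt-3 (-0.76, 0.0540), nor with quantile normalization (-0.46, 0.12) or the 28S covariate (-0.78, 0.212). The call of ALK was also lost with the 8 ALCL arrays alone. Of 25 partners and downstream genes of ALK 5 rose and 5 fell; 2 rose without FE-PD, JB6 or Molt-3, and 2 fell without JB6 or SU-DHL-1. NPM1, the usual fusion partner and a nucleolar protein, fell by 1.04 ± 0.17 but was not called with the 28S covariate (-0.76, adjusted p = 0.0628). Among 25 genes of JAK, STAT and cytokine signalling 5 rose and 7 fell, with 3 rises without any 1 of the ALCL lines and 4 falls without JB6. The shares over all genes were 8.04% for rises and 13.4% for falls. STAT6 (-1.5 ± 0.17) and STAT5B (-1.39 ± 0.16) fell in all 4 lines. A weaker probe set of STAT6 changed by -0.55 and was not called.

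T-cell receptor genes mostly were not called. Of 21 T-cell receptor and proximal signalling genes 1 rose and 4 fell (median -0.17), and 1 fell without FE-PD and 2 without JB6. Of all genes 8.04% rose and 13.4% fell. CD3E, an invariant chain of the receptor, stood at 7.96, 7.64, 7.69 and 7.20 untreated and at 7.75, 7.91, 7.87 and 7.96 treated (0.25 ± 0.20, adjusted p = 0.392). The kinases LCK (0.50 ± 0.22, adjusted p = 0.133) and ZAP70 (-0.66 ± 0.26, adjusted p = 0.0943) were not called. LCK was called without FE-PD (0.73, adjusted p = 0.0421), and ZAP70 without SU-DHL-1 and with spike centring. A weaker probe set of LCK changed by -0.23 (limma, adjusted p = 0.462), so its probe sets disagree in sign. The phosphatase PTPN22 fell by 1.03 ± 0.12 (other probe sets -1.24 and, the weakest, 0.13).

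FYN, a kinase related to LCK, was the receptor gene that rose. It stood at 6.03 in FE-PD, 6.27 in JB6 and 5.98 in SU-DHL-1 and rose to 8.87, 8.27 and 8.18, whereas Karpas 299 held it at 8.91 and 8.89. The treated arrays of the first 3 lines thus lay close to the level that Karpas 299 had from the start (mean 1.76 ± 0.36, adjusted p = 0.00768). The 3 lines are also those with the 28S rise: FYN was not called with the 28S covariate (1.10, adjusted p = 0.186), and its value was 1.08 with the mean of its probe sets and 1.15 with spike centring. Among 20 T-lineage transcription factors and Notch targets 2 fell and 0 rose, where 13.4% of all genes fell and 8.04% rose. Those that fell were MYB (-2.78 ± 0.39), from 10.44, 10.90, 8.17 and 11.27 to 7.31, 7.27, 7.15 and 7.91, and IKZF1, which encodes Ikaros (-1.52 ± 0.29). IKZF1 was not called with the 28S covariate (-0.98, adjusted p = 0.135). MYB gave -1.36 with the mean of its probe sets.

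Of 16 cytotoxic granule genes 2 rose and 2 fell (median 0.02), where 8.04% of all genes rose and 13.4% fell. SERPINB9, which protects cells from granzyme B, rose by 1.92 ± 0.27 (0.50 on a weaker probe set, not called). The RNA-binding protein TIA1 fell by 1.01 ± 0.20. With the 28S covariate 0 of these genes fell, and TIA1 had an adjusted p of 0.159 (-0.68). Of 16 genes of MHC class I and antigen processing 6 fell and 0 rose (median -0.20). The immunoproteasome subunits PSMB10 (-2.72 ± 0.36), PSMB8 (-2.11 ± 0.29) and PSMB9 (-1.62 ± 0.23) and the peptide transporter TAP2 (-1.47 ± 0.19) were among them. Weaker probe sets of TAP2 changed by -0.43 and 0.01 and were not called. PSMB8 fell from 10.23, 10.82, 10.39 and 10.86 to 7.85, 8.27, 7.75 and 9.98, least in Karpas 299. Of 37 interferon-stimulated genes 8 rose and 5 fell, where 8.04% of all genes rose and 13.4% fell. IFI27 rose by 2.06 ± 0.24 and IFITM1, a membrane protein that restricts viral entry, fell by 1.63 ± 0.16. The rises numbered 5 without FE-PD, 4 without JB6 and 3 without SU-DHL-1, and the falls 3, 3 and 2. Without the line block 1 rose and 0 fell.

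Genes of energy supply and ribosome production fell in part. Of 39 oxidative phosphorylation genes 18 fell and 2 rose (median -0.59). CYC1, cytochrome c1, fell by 1.68 ± 0.20 and the complex I subunit NDUFA9 by 1.16 ± 0.17. The falls numbered 8 without JB6, 8 without SU-DHL-1 and 3 with the 28S covariate. Of 25 MYC and ribosome biogenesis genes 15 fell and 0 rose (median -0.62), with 6 falls without JB6, 8 without SU-DHL-1 and 0 with the 28S covariate. Of 41 cytosolic ribosomal protein genes none was called by limma (median -0.10), 1 fell without FE-PD, and RPL6 had the smallest adjusted p (-0.46 ± 0.15, 0.0536). FDPS, an enzyme of cholesterol synthesis, fell by 1.64 ± 0.16, 1 of 4 such falls among 22 genes (1 without JB6, 2 without SU-DHL-1), and the stress gene NDRG1 rose by 2.60 ± 0.25.

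**Figure D2:**
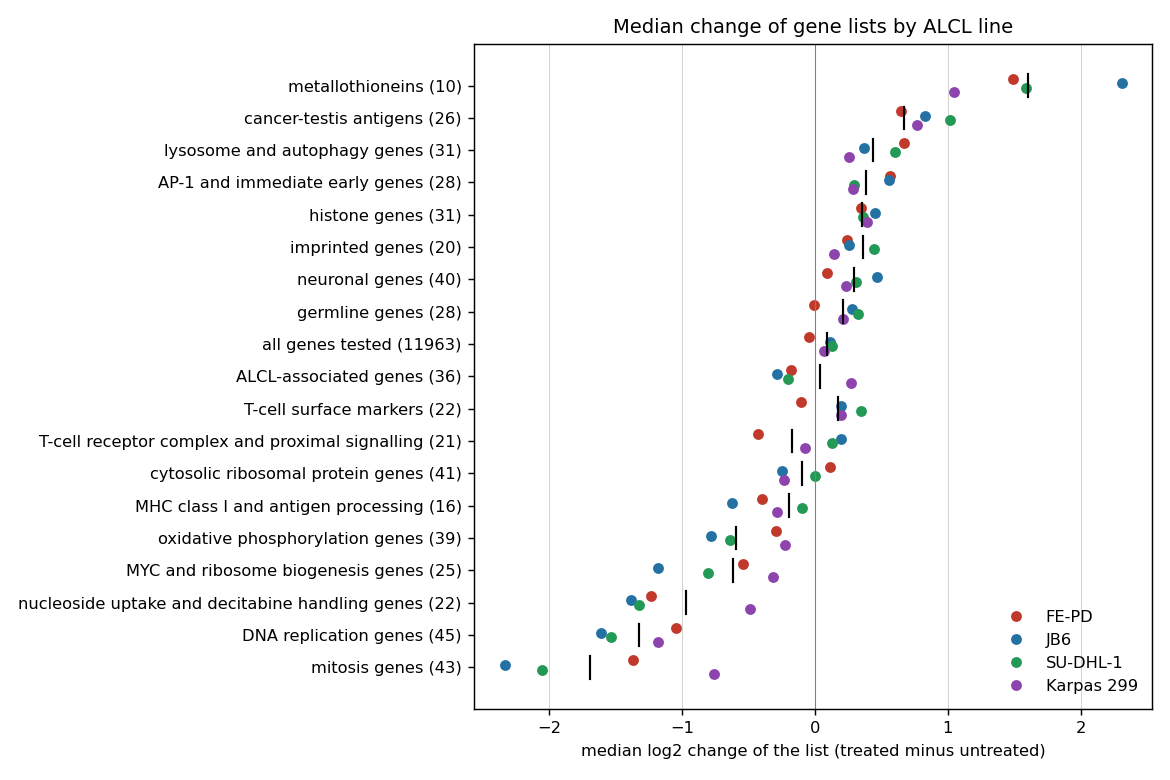
Median log2 change (treated minus untreated) of 18 gene lists and of all genes tested, with 1 point per ALCL line and a black bar for the median of the mean changes over the 4 lines; numbers in brackets are genes measured. The mitosis and replication lists lie below 0 in every line, with Karpas 299 at -0.76 for mitosis, and metallothioneins and cancer-testis antigens lie above 0 in every line.

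Markers of other cell types were examined as whole lists, beside shares over all genes of 8.04% for rises and 13.4% for falls. Of 21 B-cell markers 1 rose and 0 fell (list means of 5.95 to 6.32 untreated and 6.26 to 6.79 treated). Of 27 myeloid markers 4 rose (1 without JB6) and 0 fell (5.71 to 6.11 and 5.90 to 6.29), and of 23 erythroid and megakaryocyte markers 2 rose and 0 fell (7.02 to 7.30 and 7.19 to 7.46). None of 14 NK-cell markers was called, 4 of 28 epithelial genes rose (1 without JB6, 2 without Molt-3 or Molt-4), and of 34 mesenchymal and matrix genes 3 rose (5 without FE-PD) and 2 fell. In all 6 lists the median change was highest in JB6. CD79A (6.71 to 6.89 treated) and LYZ (3.84 to 4.57 treated) were not called. S100A9, a myeloid calcium-binding protein, rose from 4.68 to 4.94 untreated to 5.52 in FE-PD, 7.81 in JB6, 7.67 in SU-DHL-1 and 6.79 in Karpas 299 (2.13 ± 0.34, adjusted p = 0.00216). The protease inhibitor SERPINE2 rose by 2.53 ± 0.21 and the matrix protein FBN1 fell by 1.86 ± 0.27. Of 29 cytoskeletal genes 8 rose and 6 fell, with 5 rises without FE-PD, SU-DHL-1 or Molt-3, 2 without JB6 and 4 without Karpas 299. Among them, TUBB2A (2.65 ± 0.28) and GSN, the actin-severing gelsolin (1.77 ± 0.11), rose and STMN1, which destabilises microtubules, fell by 1.49 ± 0.19. A weaker probe set of GSN changed by 0.43 and was not called.

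The lines differed in the size of the response. At least 2-fold higher on the treated array were 590 genes in FE-PD, 820 in JB6, 430 in SU-DHL-1 and 352 in Karpas 299, and at least 2-fold lower were 642, 1648, 1222 and 507. In all 4 lines at once, 76 genes were at least 2-fold higher and 192 at least 2-fold lower, while 63 genes were 2-fold higher in 1 line and 2-fold lower in another. Across genes, changes in pairs of lines correlated between r = 0.506 (FE-PD and JB6) and 0.741 (JB6 and SU-DHL-1), as a description, since genes are not independent and both lines of each pair went through the same treatment. Among the treated ALCL arrays JB6 and SU-DHL-1 had the highest 28S signal and Karpas 299 the lowest.

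Some genes moved mainly in 1 or 2 lines. They are named for that pattern and have no test. CCL20, a chemokine, fell from 10.30 to 5.52 in SU-DHL-1 and rose from 5.54 to 10.51 in Karpas 299, while it stayed between 4.79 and 6.75 in FE-PD and JB6. In SU-DHL-1 the phospholipase PLA2G4A (9.57 to 5.50) and the homeobox gene NKX2-2 (8.39 to 4.75) lost a level that the other lines did not have. In Karpas 299 RRAD, a small GTPase, went from 5.86 to 10.57, against treated values of 5.97 to 6.98 in the other 3 lines. TM6SF1, a membrane protein, went from 11.27 to 7.68 in Karpas 299 and from 9.80 to 7.20 in JB6. In JB6 the matrix gene COL6A3 went from 10.59 to 7.58 and the thrombin receptor F2R from 7.59 to 5.01.

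FE-PD, the ALK-negative line, was set against the mean change of the other 3. Only 3 of 11963 genes (0.0251%) were called by limma, 2 higher (0.0167%) and 1 lower (0.00836%) in FE-PD, and 972 had an unadjusted p below 0.05. FE-PD is 1 pair of arrays, assumed to vary like the others, and an exact permutation test of 1 line against 3 cannot go below p = 0.25. On simulated data, with 200 changed genes and noise drawn independently for each gene, this comparison called 1% of genes that differed 2-fold. Of those that differed 4-fold it called 40.5%. The real genes do not vary independently and the number that differ is not known, so these rates need not hold here. Genes not called may well differ. Among all genes the difference had a median of -0.12, and 633 genes were at least 2-fold higher and 186 at least 2-fold lower.

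ID2 encodes an inhibitor of helix-loop-helix transcription factors that is used in lymphoid and myeloid cell fate. It stood at 6.79 in FE-PD and at 10.21, 11.72 and 11.26 in JB6, SU-DHL-1 and Karpas 299 before treatment. After treatment it stood at 11.33 in FE-PD and at 10.06, 11.70 and 11.29 in the others. FE-PD thus began more than 3 units below the lowest of the other lines and ended within their range. The change in FE-PD of 4.54 exceeded the mean of the other 3 by 4.59 ± 0.46 (adjusted p = 0.0239). A weaker probe set of ID2 gave a difference of 3.80. In the 4 T-cell lines ID2 started at 5.18 to 6.34 and ended at 8.97 to 10.45.

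SELENOP, a secreted selenium carrier, stood between 4.07 and 4.28 in all 4 untreated lines. It was 6.92 on the treated FE-PD array and 4.15, 4.32 and 4.15 on the others (difference 2.72 ± 0.27, adjusted p = 0.0239). IL22, a cytokine of T-helper cells, fell in FE-PD from 12.46 to 9.20. It went from 7.10 to 6.76 in JB6, 6.87 to 7.44 in SU-DHL-1 and 10.65 to 10.78 in Karpas 299 (difference -3.38 ± 0.36, adjusted p = 0.0269). All 3 calls were lost without JB6 (limma, adjusted p = 0.129, 0.104 and 0.0519 for ID2, SELENOP and IL22), with the 8 ALCL arrays alone, and without Jurkat, Molt-3 or Molt-4. The call of IL22 was the least stable. It was also lost without the line block, with quantile normalization, spike centring or the 28S covariate, and without CCRF-CEM. That of SELENOP was also lost with spike centring and without CCRF-CEM, and that of ID2 without the line block. The differences themselves stayed between 4.19 and 5.38 for ID2, 2.64 and 3.51 for SELENOP, and -3.61 and -2.59 for IL22 over the alternatives.

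**Figure D3:**
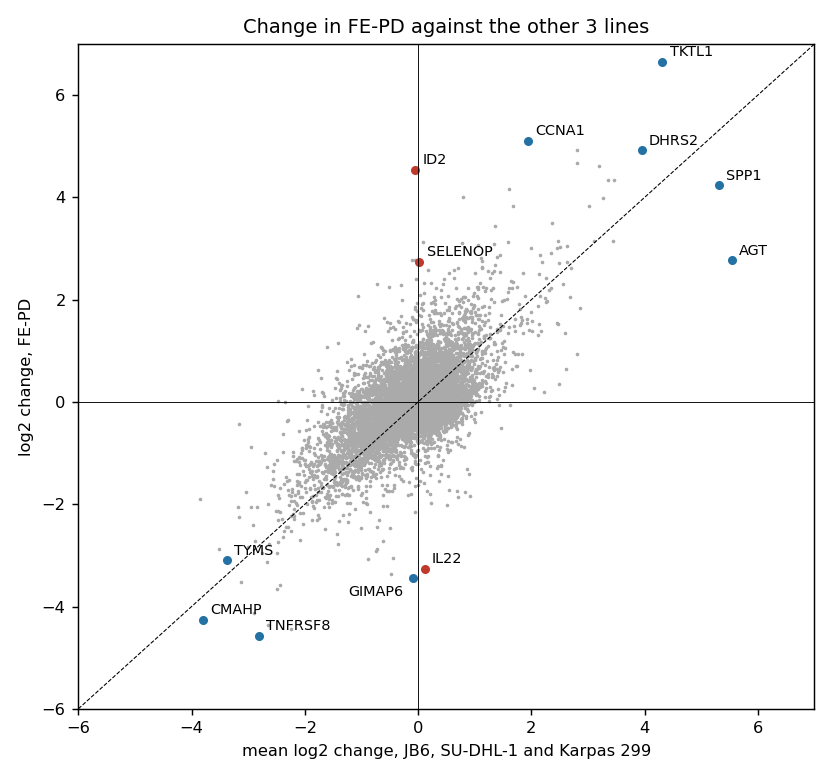
Log2 change in FE-PD (vertical) against the mean log2 change in JB6, SU-DHL-1 and Karpas 299 (horizontal), 1 grey point per gene (n = 11963). The dashed line marks equal change. Red points are the 3 genes called for the difference: ID2 (4.54 against -0.05), SELENOP (2.74 against 0.02) and IL22 (-3.26 against 0.12); blue points are other genes named in the text.

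In other genes, not called in this comparison, the change in FE-PD lay outside the range of the other 3 lines. JUN rose from 8.59 to 10.30 in FE-PD and changed by -0.11 to 0.47 in the other 3 (difference 1.51 ± 0.29, adjusted p = 0.194). CDKN2A, which encodes the inhibitor p16, stood at 7.28 and 7.16 in FE-PD, and went from 9.82, 9.52 and 9.50 to 8.37, 8.07 and 8.01 in the others (difference 1.35 ± 0.24, adjusted p = 0.186). Its other probe sets, at lower levels, gave differences of 1.94 and -0.59, so they disagree in sign. CCNA1, the germline cyclin A1, changed by 5.11 in FE-PD (5.73 to 10.85) and by 1.57, 3.48 and 0.78 in the others. GIMAP6, a GTPase of lymphocytes, went from 8.38 to 4.93 in FE-PD and was between 3.95 and 4.75 on every array of the other lines. For AGT and SPP1 the differences were -2.78 (adjusted p = 0.42; called without Karpas 299) and -1.06 (adjusted p = 0.599).

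Genes for which FE-PD stood apart before treatment were counted by a 4-fold gap, which says nothing of absence. Untreated, 39 genes lay at least 4-fold below all other 3 lines in FE-PD, of which 13 were at least 2-fold higher on its treated array and 7 stayed at least 4-fold below the others. ID2 was among the former and ALK among the latter. Another 28 genes lay at least 4-fold above the others in FE-PD, and 13 of these were at least 2-fold lower when treated. For SU-DHL-1, the same counts were 4 of 32 and 32 of 57. Choosing genes by an extreme untreated value favours a move back, so nothing is read from these shares.

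As to gene groups, the median changes of mitosis and replication genes in FE-PD (-1.37 and -1.05) lay between those of Karpas 299 and SU-DHL-1 or above those of all other 3. For NF-kB subunits and targets the median was -0.12 in FE-PD and 0.62, 0.36 and 0.53 in the other lines, and the change in FE-PD lay above the mean change of the other 3 for 1 of 20 genes. For cytosolic ribosomal proteins it was 0.11 in FE-PD against -0.25, 0.00 and -0.23, and the change in FE-PD lay above the mean of the other 3 for 37 of 41 genes; over all genes this held for 4932 of 11963. No gene of either list was called for the difference by limma. Neither pattern is particular to its list. The change in FE-PD also lay above the mean of the other 3 for 0 of 23 erythroid and megakaryocyte markers, 0 of 13 MHC class II genes and 1 of 14 NK-cell markers. Among the 2991 genes with the highest untreated mean, the median change was -0.20 in FE-PD. It was -0.72, -0.44 and -0.20 in JB6, SU-DHL-1 and Karpas 299.

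**Figure D4:**
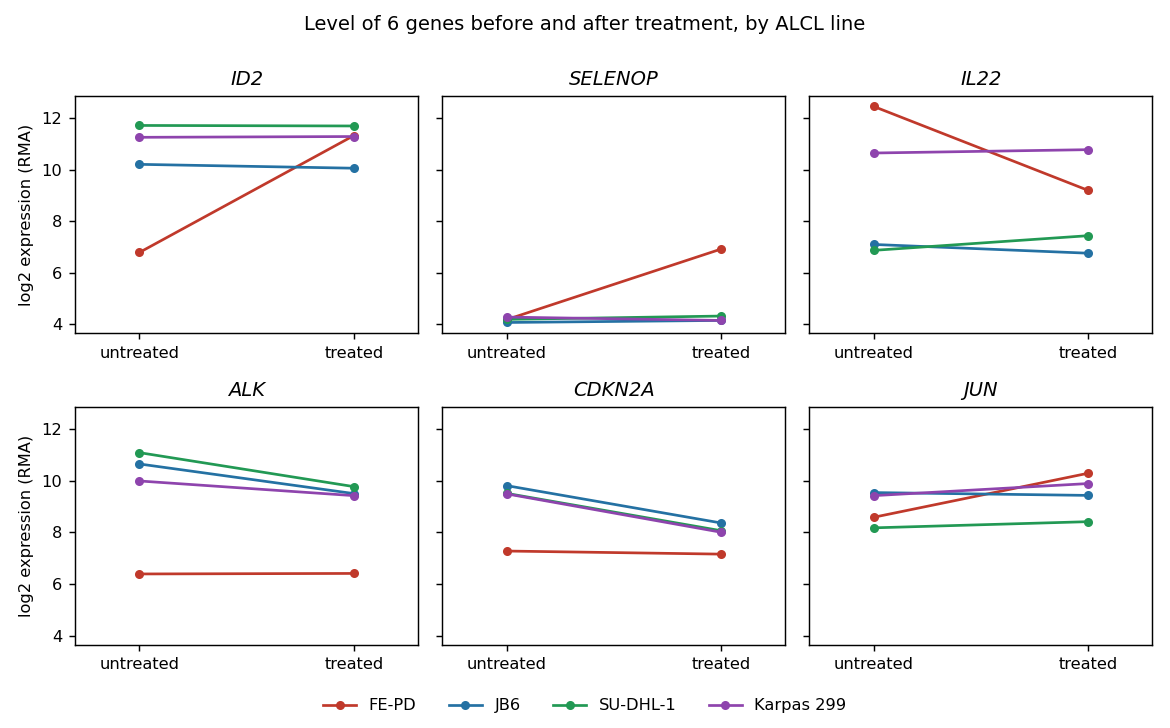
Log2 expression of ID2, SELENOP, IL22, ALK, CDKN2A and JUN on the untreated and treated array of each ALCL line, joined by a line. ID2 in FE-PD moves from 6.79 into the range of the other 3 lines (10.06 to 11.70), and ALK and CDKN2A in FE-PD stay near 6.4 and 7.2.

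To show where the ALCL response differed, it was set against that of the 4 T-cell lines in the same fit (difference of the mean changes, n = 4 and 4). The difference was called for 201 of 11963 genes (1.68%), 1.11% of all genes with a higher and 0.568% with a lower change in ALCL lines. Without Molt-3 it was called for 67 genes, and without Molt-4 for 88. T-cell lines alone had 5018 called genes (41.9%), with 21.7% of all genes higher and 20.2% lower. Of the 2566 genes called in ALCL lines, 1882 were called in the same direction in T-cell lines and 31 in the opposite one. For SPP1, the largest rise in ALCL lines, the T-cell lines went from 4.76 to 5.00 untreated to 5.35 to 5.88 treated (change 0.71 ± 0.23), a difference of 4.33 ± 0.33 (adjusted p = 0.000273). AGT (4.61 ± 0.70), SLPI (2.96 ± 0.29) and ENPP2 (2.62 ± 0.20) also rose more in ALCL lines. TKTL1 (0.26 ± 0.57, adjusted p = 0.899) and DHRS2 (-0.03 ± 0.60, adjusted p = 0.992) were not called for a difference.

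IL26 (-3.25 ± 0.27), IL2RA (-3.66 ± 0.44), CACNA2D3 (-3.71 ± 0.45), APOBEC3B (-2.76) and TYMS (-1.80 ± 0.27) had a lower change in ALCL than in T-cell lines. In T-cell lines TYMS fell from 12.25 to 12.69 untreated to 10.39 to 11.81 treated. The other 4 were not called there, and their untreated levels lay below those of every ALCL line, at 3.67 to 3.88 for IL26, 5.92 to 6.75 for IL2RA, 4.68 to 4.96 for CACNA2D3 and 4.19 to 6.41 for APOBEC3B. The change of TNFRSF8, at 7.34 to 8.26 in untreated T-cell lines, was also lower (-2.56 ± 0.45, adjusted p = 0.0214), but not called without JB6 (adjusted p = 0.0636), Molt-3 (0.0855) or Molt-4 (0.0732). GAS1 (-3.61 ± 0.64, adjusted p = 0.0216), at 4.88 to 6.15 in untreated T-cell lines, was not called without Molt-3 (0.0861) or Molt-4 (0.0732), nor without the block. Of 45 replication genes 9 had a lower change in ALCL lines, among them MCM2 (-1.53 ± 0.26) and MCM7 (-1.09 ± 0.23), neither called without Molt-3 or Molt-4. TYMS was not called with spike centring, nor APOBEC3B and LGALS1 without the line block, nor CD3E with quantile normalization or spike centring. LCK (3.88 ± 0.31) and CD3E (1.93 ± 0.29) fell in T-cell lines and not in ALCL lines, and LGALS1 rose in T-cell lines and was not called in ALCL lines (-2.80 ± 0.41, adjusted p = 0.011). LCK untreated was 10.70 to 12.12 in T-cell lines and 5.71 to 6.29 in ALCL lines. Of 21 receptor genes 9 had a higher change in ALCL lines and 0 a lower one.

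**Figure D5:**
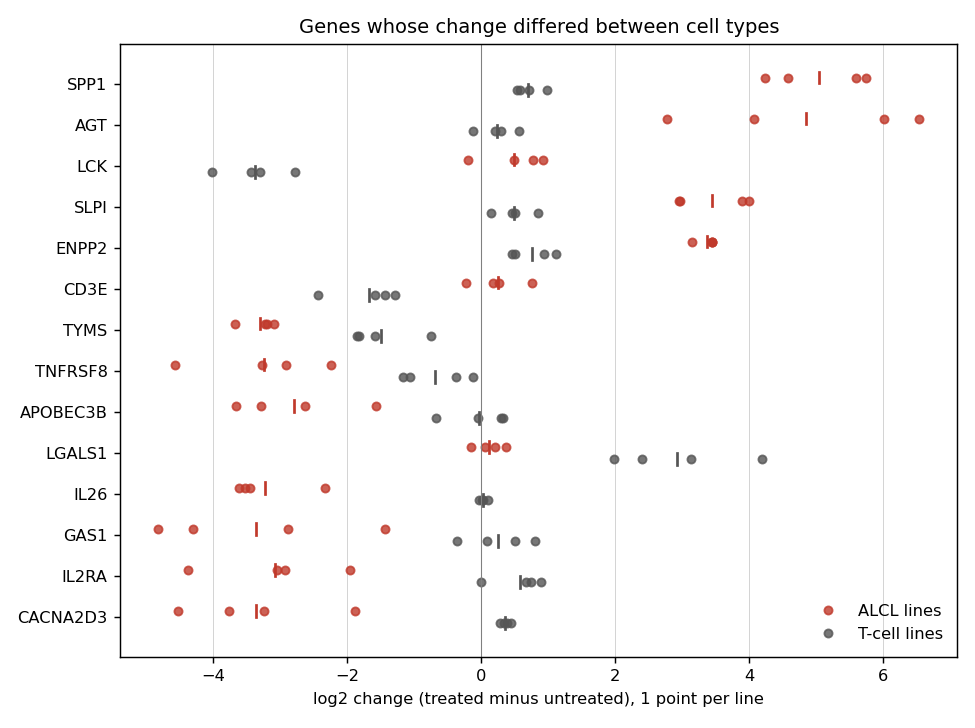
Log2 change (treated minus untreated) of 14 genes in the 4 ALCL lines (red) and the 4 T-cell lines (grey), 1 point per line with a bar for the mean. SPP1 changes by 4.24 to 5.74 in ALCL lines and by 0.54 to 0.98 in T-cell lines, and LCK by -0.20 to 0.92 and by -4.02 to -2.78.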

How the data were processed

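Total RNA was hybridised to Affymetrix arrays. The deposited log2 values were made by the authors with RMA (R 2.10.1), as the submitters' processing notes list; for filters and detection calls the sources used here say nothing, and the number of arrays limits the precision. Of 22283 probe sets 68 were controls, 19065 had 1 gene symbol, 1043 several and 2107 none. Each gene was read by its probe set with the highest mean over 16 arrays, giving 11963 genes. The members and the 41 gene lists were chosen with earlier results of these data known.

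Changes were tested in R 4.3.3 with limma 3.58.1, by lmFit with moderation by eBayes, in 1 fit over all 16 arrays that blocked on cell line (6 residual degrees of freedom, and 5 with FE-PD as a separate term), two-sided, with Benjamini-Hochberg adjustment over all genes. Values after ± are moderated standard errors. Labels pair the arrays by line, and the deviations of a line's 2 arrays from their group means correlated at 0.411 to 0.643, against 0.076 at most with another line. P-values measure the spread between lines of single cultures. On simulated data with 11963 genes, of which 200 were changed, 71.5% of 2-fold and 96.4% of 4-fold ALCL effects were called. The simulation drew independent noise and gave the other genes no treatment effect, unlike these data, so its rates need not hold here. Named genes were the 12 highest and 12 lowest called changes of 1 direction in all lines, called FE-PD differences, per line the 3 highest and lowest changes against the median of the others, up to 4 members of each list by adjusted p, and a fixed set (CDKN1A, MYC, HDAC1, DNMT3B, DNMT3A, DNMT1, ZAP70, LCK, CD3E, ALK, TNFRSF8, CLU, JUN, LGALS1, ID2); markers of other cell types were added. Alternatives were no block, ALCL arrays alone, other probe set rules, a filter on the lowest 40%, quantile, median and spike scaling, a 28S covariate, eBayes with trend, a 2-fold minimum and leaving out each line.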

Additional observations from a re-analysis of the deposited data

Results flagged for a closer look

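Over the 4 ALCL lines, 147 changes were examined for a line far from the others, and 11 had one. Chance alone gives about 1 in 20 groups. The share found is not read against that rate, since genes do not vary independently. In addition, ID2, SELENOP and IL22 were named because FE-PD differed. In FE-PD the changes far from the others were those of ENPP2 (3.15), ID2 (4.54), SELENOP (2.74) and CDKN2A (-0.11) and the median of the tumour suppressor list (-0.12). In Karpas 299 they were IL26 (-2.33), PSMB8 (-0.89), DDB2 (-1.09) and the median of the nucleoside handling list (-0.48). The others were NPTX2 in JB6 (2.09) and ZAP70 in SU-DHL-1 (0.47). A weaker probe set of ENPP2 changed by 4.13 in FE-PD, within the range of 3.53 to 4.93 in the other lines.

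The change differed between ALCL and T-cell lines, by the test of the difference itself (limma, adjusted p below 0.05), in 25 of the genes named. Over all genes 1.68% were called. Many of the genes were named for a large change in ALCL lines, which is part of the difference. That choice favours a call, so nothing is read from the count. The change was higher in ALCL lines for SPP1 (4.33), AGT (4.61), SLPI (2.96), ENPP2 (2.62), LCK (3.88), CD3E (1.93), PSAP (1.65), SERPINE2 (1.56), DUSP5 (1.45) and ZFP36 (1.28). It was lower for GAS1 (-3.61), CACNA2D3 (-3.71), IL2RA (-3.66), CYTIP (-3.43), IL26 (-3.25), LGALS1 (-2.80), APOBEC3B (-2.76), TNFRSF8 (-2.56), RRM2 (-2.46), TYMS (-1.80), CDKN2A (-1.53), MCM2 (-1.53), DUT (-1.28), MCM7 (-1.09) and ZWINT (-1.03). Of these differences, those of SPP1, AGT, SLPI, ENPP2, LCK, CACNA2D3, IL2RA and IL26 were called under every alternative run. Leaving out Molt-3 ended the calls of GAS1, TNFRSF8, CYTIP, RRM2, PSAP, ZWINT, MCM7, MCM2, DUT, DUSP5, ZFP36, SERPINE2 and CDKN2A, and all of these but DUT were also lost without 1 or more other lines. FE-PD differed from the other 3 lines in ID2 (4.59), SELENOP (2.72) and IL22 (-3.38).

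A control probe set for 28S ribosomal RNA, which no comparison used as an outcome, stood above the untreated range of 6.60 to 7.62 on the treated arrays of FE-PD (12.05), JB6 (14.09) and SU-DHL-1 (14.06). Its part in the results was not tested beyond the fit that holds it as a covariate, and that covariate overlaps with the treatment.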

How the results depend on the processing

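None of the alternatives reversed a named result. For a named gene the fit of each probe set by itself read the same probe set as the main fit, so it could not reverse a direction. Some weaker probe sets, none of them called, had the opposite sign, among them those of TYMS (0.05), MYB (0.06), CDKN1C (-0.10) and CDKN2A (0.27). Of the recomputed values of named genes 2149 kept their direction and side of the threshold, 161 lost the call, 10 gained it and 17 uncalled values changed sign. The count of 2566 genes called for the ALCL effect was 1440 with no replicate block (the pairing by line removed), 730 with the 28S covariate, 1004 with a 2-fold minimum, and 1432 to 2648 with 1 line left out. For FE-PD against the other lines the 3 calls became 0 with the 8 ALCL arrays alone (708 genes at an unadjusted p below 0.05), 6 with the mean of probe sets, 5 with each probe set by itself, 1 with spike centring, 6 with eBayes trend and 0 to 14 with 1 line left out, the 14 without Karpas 299. The 201 genes that differed between ALCL and T-cell lines became 62 with no replicate block, 64 with spike centring and 67 to 195 with 1 line left out. With no replicate block the ALCL calls of BATF3, IFITM1, CDKN1A, CTSB, MEST, SERPINB9, ALK and CDKN2A were also lost, and with the 28S covariate that of CCNA1. Causes were not tested. Probe sets near background limit what low genes can show, and each culture was profiled once.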
